A study of Mus musculus with 17 samples.

Results

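The 10 genes described here, Osr1, Lhx1, Pax2, Pax8, Wt1, Gata3, Ret, Gdnf, Eya1 and Six2, mark the intermediate mesoderm and the first kidney tissues. They were chosen by name, and all 10 were found among the 41709 gene symbols of the deposited expression table. RNA had been sequenced from 17 single whole embryos of the C57BL/6J mouse strain. At embryonic day 9.5 (E9.5) there were 4 wild-type embryos (Disp1_WT) and 4 embryos with the 2 mutant Disp1 alleles CS and INDEL (Disp1_CS_INDEL), from litters of Disp1CS/+ mothers and Disp1INDEL/+ fathers. At E8.5 there were 4 Myo10+/+ embryos (Myo10_WT) and 5 Myo10m1J/m1J embryos (Myo10_m1J), from crosses of Myo10m1J/+ parents. Disp1 encodes Dispatched, which releases Hedgehog proteins from the cells that make them, and Myo10 encodes an unconventional myosin of filopodia. The alleles are present in the whole embryo, no kidney tissue was isolated, and all groups share the strain. Every library is 1 animal. Which of them were littermates is not given in the labels.

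The intermediate mesoderm is the strip of mesoderm between the somites and the lateral plate. Part of it becomes the nephric duct, an epithelial tube that grows towards the tail, and the rest becomes nephrogenic mesenchyme. The permanent kidney starts when GDNF from the mesenchyme signals through RET in the duct and an epithelial bud grows out, which follows the ages sampled here. All 10 genes are also used elsewhere in the embryo. Pax2 and Pax8 are expressed at the midbrain-hindbrain boundary and in the ear primordium, Ret in neural crest, Wt1 in coelomic epithelium and proepicardium, Gata3 in trophoblast, and Six2 and Eya1 in head mesenchyme or placodes. In RNA of a whole embryo these sources are added together, and fewer cells of a type cannot be told apart from less RNA per cell.

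Values are TPM, an abundance in which reads are divided by transcript length and each library is scaled to the same total. Levels can therefore be set side by side between genes, but the table keeps no read depth, so no counting error can be given. Differences are on the scale of log2(TPM + 1), tested with limma over every gene that reached a TPM of 1 in 4 or more of the compared libraries. A gene was called where its p-value, adjusted by the Benjamini-Hochberg method over all tested genes, was under 0.05.

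The promoters of 3 of the genes are shown because these genes have a promoter entry and were called between the ages both as deposited and after scaling: Six2 and Gdnf were higher at E9.5, and Lhx1 was lower. The sequences are the 250 bases before the start site in RefSeq, build GRCm38.p6, an older build than that of the authors, written 5′ to 3′ on the gene's strand. Capitals mark letters found on either strand by a search for 3 motifs. The motif AGATAA is one that GATA factors recognise. The motif CCAAT is a general promoter element. The motif TATAAA is the TATA box. The windows are chr17:85688255-85688504 on the minus strand for Six2, chr11:84525535-84525784 on the minus strand for Lhx1, and chr15:7809798-7810047 on the plus strand for the first of both Gdnf start sites in the table.
Six2: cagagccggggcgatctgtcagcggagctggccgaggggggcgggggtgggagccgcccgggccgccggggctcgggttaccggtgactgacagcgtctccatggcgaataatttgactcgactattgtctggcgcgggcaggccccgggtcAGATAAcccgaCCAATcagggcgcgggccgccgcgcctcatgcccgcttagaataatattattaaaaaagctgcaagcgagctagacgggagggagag
Lhx1: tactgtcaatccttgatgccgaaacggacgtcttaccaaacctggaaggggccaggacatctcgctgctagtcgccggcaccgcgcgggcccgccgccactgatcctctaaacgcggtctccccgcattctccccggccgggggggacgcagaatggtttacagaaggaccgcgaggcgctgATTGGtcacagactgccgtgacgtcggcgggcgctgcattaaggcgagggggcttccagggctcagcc
Gdnf: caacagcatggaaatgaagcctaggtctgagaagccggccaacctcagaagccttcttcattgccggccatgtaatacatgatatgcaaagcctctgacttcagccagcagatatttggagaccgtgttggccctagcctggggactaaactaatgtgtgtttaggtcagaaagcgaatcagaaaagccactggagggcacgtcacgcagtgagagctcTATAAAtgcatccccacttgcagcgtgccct

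In the Six2 promoter, AGATAA lies at bases -98 to -93 and CCAAT at -87 to -83, counted from the start site. In Lhx1 the CCAAT element is on the opposite strand at -68 to -64, where it reads ATTGG. The Gdnf window holds TATAAA at -31 to -26. RefSeq entries were matched for 6 members with 9 start sites (Gata3, Gdnf, Lhx1, Pax2, Pax8 and Six2). Over these 9 windows CCAAT was found in 4, AGATAA in 2 and TATAAA in 1, against 33.8%, 9.99% and 12.4% of all 32851 promoters of the same length. The GLI motif GACCACCCA, the MEF3 motif TCAGGTTTC of the Six2 family and the WT1 and EGR motif GCGGGGGCG were found in 0 of the 9, against 0.225%, 0.387% and 2.57% of all promoters. These are matches of letters in a short window and say nothing of whether a factor binds there.

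At E9.5, Six2 had the highest level of the 10 genes in the wild type, at a mean of 23.3 TPM ± 1.56 (SD, n = 4). Eya1 at 12.5 ± 1.06 and Osr1 at 12.5 ± 1.86 came next, with ranges that overlap each other and not that of Six2. Ret at 6.94 ± 1.73 and Gata3 at 6.34 ± 0.472 overlapped each other and lay below Osr1. Wt1 followed at 3.90 ± 0.122, above Pax2 at 3.29 ± 0.334. Gdnf at 2.98 ± 0.320 and Pax8 at 2.97 ± 0.143 overlapped with their neighbours, and Lhx1 was lowest at 1.97 ± 0.265, without overlap. At E8.5 the order of the wild type was another one. Osr1 led at 13.5 TPM ± 4.60 (SD, n = 4) and did not overlap with Eya1 at 4.98 ± 1.78. From Eya1 down through Ret, Gata3, Lhx1, Pax8, Six2, Pax2, Gdnf and Wt1, each gene overlapped with the next. Six2 was in 7th place of the 10 in these embryos, at 2.09 ± 1.18.

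The libraries of the experiments differ in composition, which bears on every comparison between the ages. Rows of small structural RNAs (7SK, 7SL, RMRP and RPPH1, 336 rows) took 0.00524% to 0.0113% of all TPM in Disp1_WT and 29.7% to 36.9% in Myo10_WT. A gene of constant share among the other RNAs is thereby read lower at E8.5. Values after median-of-ratios scaling, which sets the typical gene equal between libraries, are therefore given beside the deposited ones. Age, experiment and library composition cannot be told apart. The targeted genes were read first as a check of the labels: Myo10 was 2.16 to 4.35 TPM in Myo10_m1J and 19.9 to 33.9 TPM in Myo10_WT, and Disp1, whose alleles need not lower its RNA, was 11.6 to 16.3 TPM in Disp1_CS_INDEL and 15.3 to 19.3 TPM in Disp1_WT. At E9.5, Disp1_WT replicate 3 and Disp1_CS_INDEL replicate 1 stand apart: the sum of 12 tail bud and presomitic mesoderm genes was 58.7 and 58.9 TPM there, against 138.2 to 188.9 in the other 6 embryos. Disp1_WT replicate 3 also held RNA of decidua or trophoblast (Prl8a2 at 551 TPM, Prl3d1 at 113 TPM and Prl2c2 at 75.4 TPM).

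**Figure D1:**
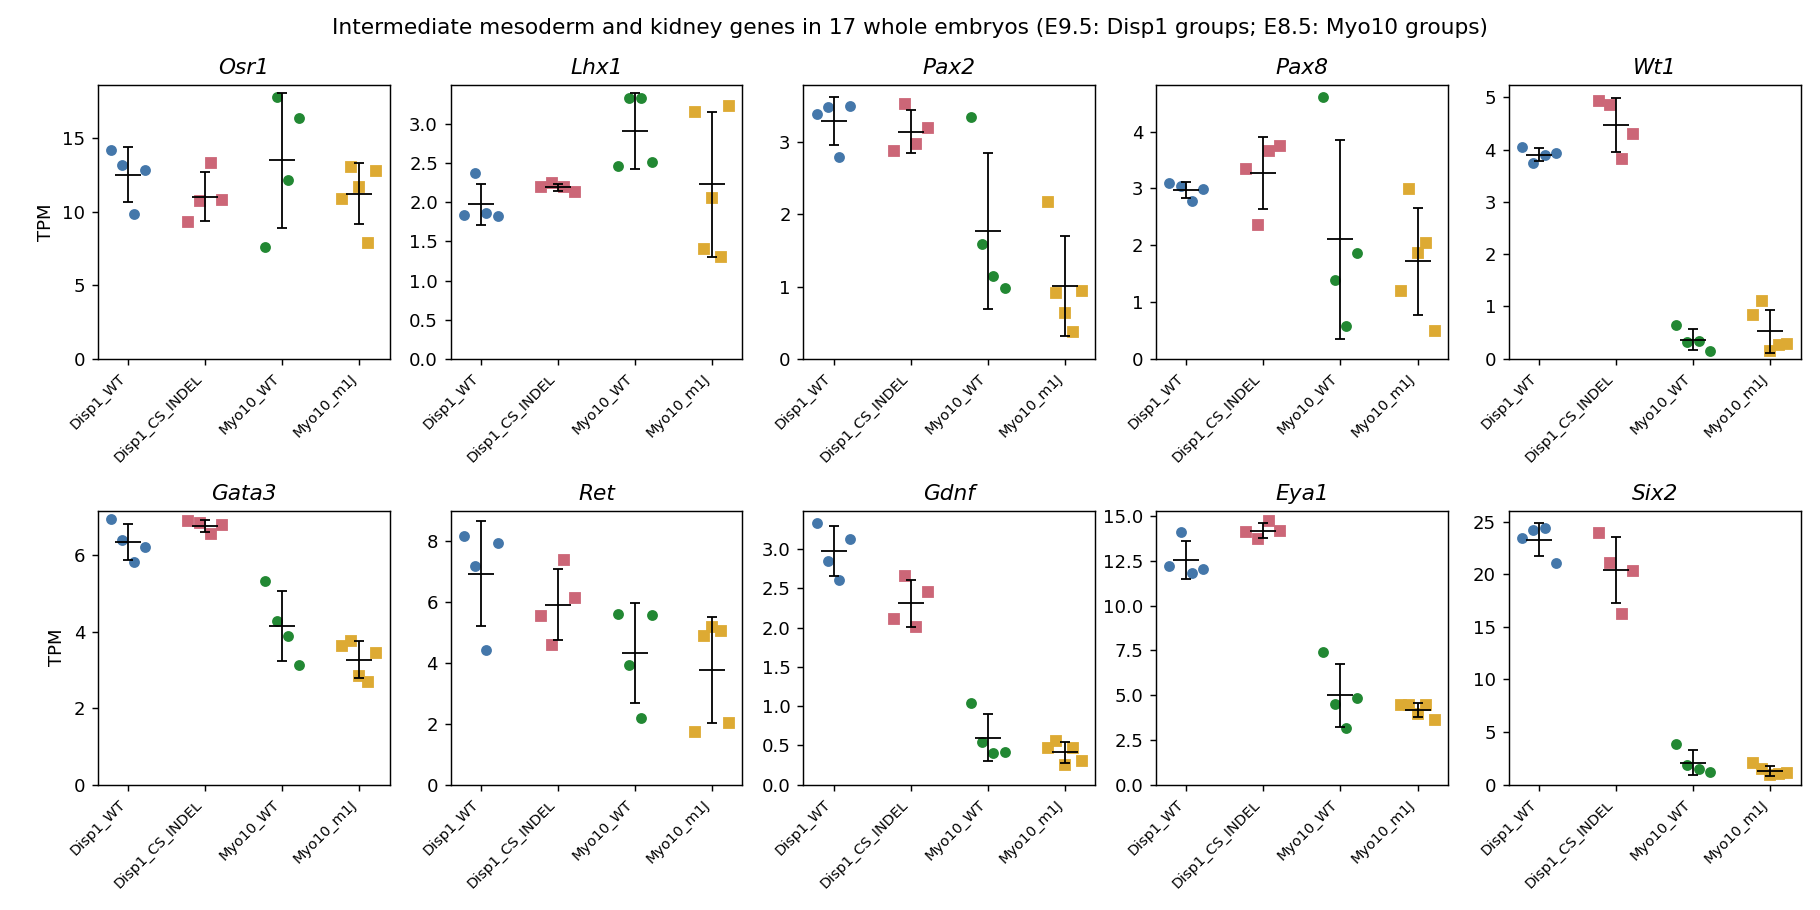
TPM (vertical axes, from 0) of the 10 genes in each of the 17 embryos, by group (horizontal axes); points are embryos, and the horizontal mark and bar are the mean ± SD. Six2, Wt1, Gdnf, Eya1 and, more narrowly, Gata3 are separated between the E9.5 and E8.5 groups, while the mutant and wild-type groups of each age overlap for all 10 genes.

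In the comparison of Disp1_CS_INDEL with Disp1_WT, which asks what the Disp1 mutations do at E9.5, none of the 10 genes was called. The comparison as a whole called 4 of 13294 genes (0.0301%), so a count of 0 of 10 is near that background. Of the 10 genes, 5 had positive and 5 negative differences, against 56.3% positive and 43.7% negative over all genes, with a median of 0.017 against 0.0097 over all genes. The mutant and wild-type ranges overlapped for all 10, where 1.55% of all genes did not overlap. Unadjusted p-values under 0.05 were found for Gdnf and Eya1, 2 of 10, against 2.26% of all genes; every adjusted p of the 10 was 1.00 (limma). General readouts of Hedgehog signalling were lower in the mutant without overlap and yet not called: Ptch1 (the Hedgehog receptor) at a difference of -0.46, Gli1 (a transcription factor induced by the pathway) at -0.50 and Hhip (a Hedgehog-binding protein at the cell surface) at -0.59, with adjusted p of 0.339, 1.00 and 0.169 (limma). After median-of-ratios scaling, Ptch1 and Hhip were called lower and none of the 10 kidney genes was called, where 0.0150% of all genes were called higher and 0.0451% lower.

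Among the transcription factors of the early intermediate mesoderm, Osr1, the earliest of them to be expressed, measured 14.2, 13.2, 9.85 and 12.8 TPM in Disp1_WT replicates 1 to 4. In Disp1_CS_INDEL it measured 9.26, 10.7, 13.3 and 10.8 TPM. The lowest values of both groups belonged to the 2 embryos poor in tail bud RNA, and the difference was -0.17 on the log2 scale (SE 0.12, adjusted p = 1.00, limma). Lhx1, a LIM-homeodomain factor needed for the nephric duct, measured 1.84, 2.37, 1.87 and 1.82 TPM in the wild type and 2.19, 2.24, 2.19 and 2.13 TPM in the mutant. The mutant embryos, with an SD of 0.0445 TPM (n = 4), lay above 3 wild-type embryos and below the fourth (difference 0.10, SE 0.093, adjusted p = 1.00, limma).

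Pax2 and Pax8 encode paired-box factors that act together in specifying the duct. Pax2 measured 3.39, 3.48, 2.80 and 3.50 TPM in the wild type and 2.87, 3.53, 2.97 and 3.20 TPM in the mutant, a difference of -0.050 (SE 0.096). The lowest embryo of each group was again the one poor in tail bud RNA. Pax8 was even among wild-type embryos, at 2.77 to 3.09 TPM, and wider among the mutants, at 3.34, 2.36, 3.66 and 3.74 TPM. Its difference was 0.093 (SE 0.12), with 3 mutant embryos above and 1 below the wild-type range. Wt1, a zinc finger factor of nephrogenic mesenchyme, coelomic epithelium and later podocytes, measured 4.04, 3.75, 3.89 and 3.93 TPM in the wild type and 4.93, 4.86, 3.83 and 4.30 TPM in the mutant. It was above every wild-type embryo in 3 of 4 mutants, and the difference of 0.15 (SE 0.091) had an unadjusted p of 0.117 in limma. Gata3, a zinc finger factor that the nephric duct needs to reach its target, differed by 0.083 (SE 0.076), at 5.81 to 6.95 TPM in the wild type and 6.55 to 6.90 TPM in the mutant.

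Of the signalling pair, Ret encodes the receptor tyrosine kinase of the duct. It measured 8.18, 7.20, 4.43 and 7.95 TPM in the wild type and 5.56, 4.59, 7.39 and 6.13 TPM in the mutant. It had the widest spread of the 10 genes at this age in both groups, with coefficients of variation of 24.9% and 19.8%, and its lowest value was in Disp1_WT replicate 3. The difference was -0.18 (SE 0.18), and without the 2 embryos poor in tail bud RNA it was -0.34 (SE 0.15, unadjusted p = 0.0496, adjusted p = 1.00, limma). Gdnf, its ligand, measured 3.34, 2.85, 2.61 and 3.13 TPM in the wild type and 2.11, 2.66, 2.01 and 2.45 TPM in the mutant. Only 1 mutant embryo reached above the lowest wild-type embryo. The mean in the mutant was 77.5% of that in the wild type, and the difference of -0.27 (SE 0.10) had an unadjusted p of 0.0261 in limma and an exact two-sided permutation p of 0.0571, where 4 against 4 embryos allow no p under 0.0286. It was -0.28 without those 2 embryos.

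Eya1, a phosphatase and transcriptional partner of the Six2 family that lies upstream of Gdnf in the kidney mesenchyme, measured 12.2, 14.1, 11.8 and 12.0 TPM in the wild type. It measured 14.1, 13.7, 14.7 and 14.1 TPM in the mutant. A single wild-type embryo lay inside the mutant range, and the difference of 0.17 (SE 0.072) had an unadjusted p of 0.0421 in limma and an exact two-sided permutation p of 0.0571. It was 0.14 (unadjusted p = 0.148, limma) without the 2 embryos poor in tail bud RNA. Six2, the homeobox gene that keeps nephron progenitors in the later kidney, measured 23.5, 24.3, 24.4 and 21.1 TPM in the wild type and 23.9, 21.1, 16.3 and 20.3 TPM in the mutant. Its lowest value was in Disp1_CS_INDEL replicate 3, and the difference was -0.19 (SE 0.10, unadjusted p = 0.0930, limma). Without those embryos it was -0.25 (unadjusted p = 0.0468, limma).

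No gene of the wider kidney lists was called between the Disp1 groups. Of 15 partners and readouts of GDNF-RET signalling, 14 were positive, against 56.3% of all genes. Their median was 0.083, against 0.0097 over all genes, and 0.072 after scaling. Gfra1, the co-receptor that binds GDNF, was uneven among the mutants, with 1 embryo at 10.4 TPM, against 5.51 to 7.06 in the other 3 and 5.41 to 6.62 in the wild type. Of 14 genes of the nephric duct and ureteric epithelium 8 were tested, with 4 positive and 4 negative. Within that list Emx2, a homeobox gene of the urogenital system and also of the forebrain, was 9.57 to 10.2 TPM in the wild type and 11.8 to 13.2 TPM in the mutant. It was the one of the 8 tested duct genes whose groups did not overlap, against 1.55% of all genes. Its difference was 0.34 (SE 0.067, adjusted p = 0.358, limma). Of 18 genes of the nephrogenic mesenchyme 16 were tested, with 7 positive and 9 negative. Without overlap, 1 was higher and 1 was lower in the mutant. Itga8 was 5.86 to 6.78 TPM in the mutant and 5.02 to 5.73 TPM in the wild type. Foxd1 was 12.4 to 16.9 TPM in the mutant and 18.1 to 19.8 TPM in the wild type. These are values of whole embryos, and which tissue gave the differences of the listed genes was not tested.

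**Figure D2:**
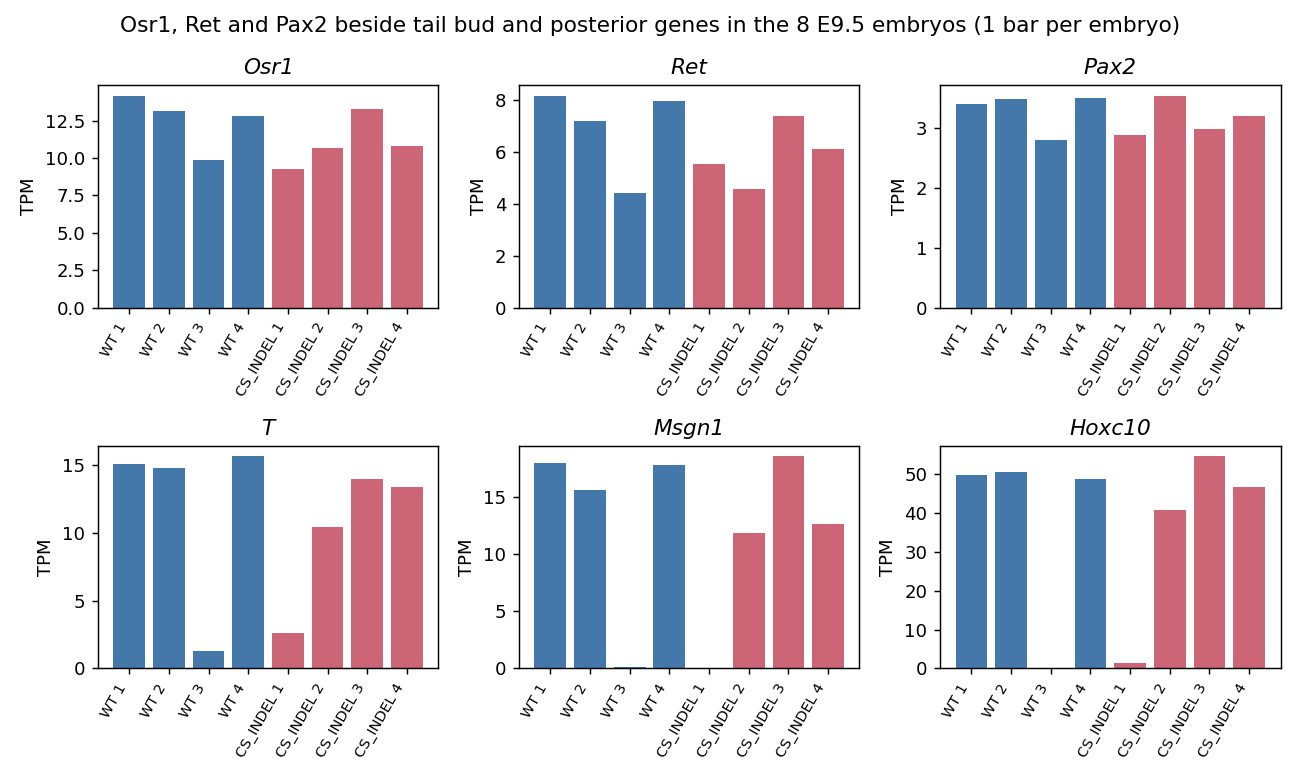
TPM (vertical axes, from 0) of Osr1, Ret and Pax2 (upper row) and of the tail bud genes T and Msgn1 and the posterior gene Hoxc10 (lower row) in the 8 E9.5 embryos, 1 bar per embryo. Disp1_WT replicate 3 and Disp1_CS_INDEL replicate 1 are at or near 0 for Msgn1 and Hoxc10, and they are the 2 lowest of the 8 for Osr1 and for Pax2.

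The caudal embryo is where the nephric duct extends and the metanephric mesenchyme forms, so the pair of embryos low in tail bud RNA was examined gene by gene. T (Brachyury, a factor of the tail bud) was 1.32 and 2.62 TPM in them and 10.4 to 15.7 TPM in the other 6. Msgn1, of presomitic mesoderm, was 0.104 and 0 TPM in them and 11.9 to 18.6 TPM in the others. Hoxc10, expressed at hindlimb and tail levels, was 0.134 and 1.46 TPM against 40.8 to 54.6 TPM. Osr1 was lowest of all 8 embryos in this pair, as was Pax2. Disp1_WT replicate 3 was the lowest of its 4 for 7 of the 10 genes (Osr1, Pax2, Pax8, Gata3, Ret, Gdnf and Eya1), against 31.7% of all genes tested, and it was the highest of its 4 for Six2, against 17.5%. Disp1_CS_INDEL replicate 1 was the lowest of its 4 for Osr1 and Pax2, against 10.2% of all genes, and the highest for Wt1, Gata3 and Six2, against 48.4%. Six2, Wt1 and Lhx1 were thus not low in the pair. The part of tail tissue in these values was not tested.

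In the comparison of Myo10_m1J with Myo10_WT at E8.5, none of the kidney genes was called either. Of the 10 genes 8 passed the filter on low values; Wt1 and Gdnf were under 1 TPM in nearly all embryos and were not tested in limma. The comparison called 1 of 12560 genes (0.00796%). No unadjusted p of the 8 was under 0.05, against 6.80% of all genes. All 8 differences were negative and all 8 ranges overlapped, where 0.995% of all genes did not overlap. This sign was that of most genes, 94.0% of which were negative, with a median of -0.23 for the 8 and -0.16 over all genes. After median-of-ratios scaling the median over all genes was 0.015, that of the 8 genes was -0.066, and Pax8 (0.029) and Eya1 (0.00072) turned positive. The share of structural RNA was 32.2% to 44.5% in Myo10_m1J and 29.7% to 36.9% in Myo10_WT.

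Among the transcription factors, Pax2 measured 3.34, 1.60, 1.14 and 0.982 TPM in Myo10_WT and 2.18, 0.917, 0.634, 0.364 and 0.941 TPM in Myo10_m1J. Its difference of -0.45 (SE 0.26, adjusted p = 0.473, limma) was the largest of the 8. Lhx1 measured 2.47, 3.33, 3.33 and 2.52 TPM in the wild type and 3.15, 1.40, 2.06, 1.30 and 3.23 TPM in the mutant. The mutant embryos fell to both sides of the wild-type range's lower end, with 2 inside and 3 below it (difference -0.32, SE 0.20). Osr1 measured 7.62, 17.8, 12.1 and 16.4 TPM in the wild type, and its 5 mutant values of 7.85 to 13.0 TPM lay inside that range (difference -0.20, SE 0.22). Gata3 measured 5.32, 4.27, 3.88 and 3.13 TPM in the wild type and 2.69 to 3.76 TPM in the mutant, a difference of -0.26 (SE 0.15, adjusted p = 0.473, limma).

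Pax8 was the most uneven of the genes in Myo10_WT, at 4.61, 1.38, 0.572 and 1.86 TPM, a coefficient of variation of 83.2%. In Myo10_m1J it measured 1.20, 2.99, 1.86, 2.03 and 0.491 TPM, and its difference of -0.11 (SE 0.34) was 0.22 without Myo10_WT replicate 1. Wt1 measured 0.157 to 0.638 TPM in the wild type and 0.154 to 1.10 TPM in the mutant (exact two-sided permutation p = 0.556). Its highest value was in Myo10_m1J replicate 2. This embryo also held the most Prl8a2 (146.5 TPM) and Prl3d1 (42.7 TPM) of the E8.5 embryos, genes of decidua or trophoblast. The part of such tissue in the Wt1 value was not tested.

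Ret measured 5.63, 3.93, 2.19 and 5.59 TPM in Myo10_WT and 1.72, 4.90, 5.18, 5.04 and 2.02 TPM in Myo10_m1J, a difference of -0.19 (SE 0.30). Its values fell near 2 or near 5 TPM in both groups, apart from 1 wild-type embryo at 3.93. Gdnf was 0.398 to 1.04 TPM in the wild type and 0.245 to 0.558 TPM in the mutant (exact two-sided permutation p = 0.270). Eya1 measured 7.42, 4.51, 3.15 and 4.82 TPM in the wild type and 3.59 to 4.46 TPM in the mutant, a difference of -0.17 (SE 0.18). Six2 measured 3.82, 1.84, 1.48 and 1.23 TPM in the wild type and 2.03, 1.48, 0.929, 0.973 and 1.06 TPM in the mutant, a difference of -0.39 (SE 0.22, adjusted p = 0.473, limma). The wild-type replicate 1 was the highest of its 4 for 6 of the 8 tested genes, against 50.8% of all genes, and the lowest for Osr1 and Lhx1, against 7.53%. This embryo also had the smallest sum of the 12 tail bud and presomitic mesoderm genes at E8.5, 124.3 TPM. The sum was 453.1 to 595.3 TPM in the other wild-type embryos and 228.3 to 630.2 TPM in Myo10_m1J.

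Of the other kidney genes at E8.5, 14 partners and readouts of RET signalling were tested and all 14 were negative, as were 10 of 11 duct genes and 11 of 13 genes of the mesenchyme, with none called. Sall1, a zinc finger factor of the metanephric mesenchyme and of other tissues, differed by -0.36 (SE 0.16, adjusted p = 0.473, limma) and by -0.17 after scaling (adjusted p = 0.767). The median differences of the 3 lists after scaling were 0.00038, -0.053 and 0.032.

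**Figure D3:**
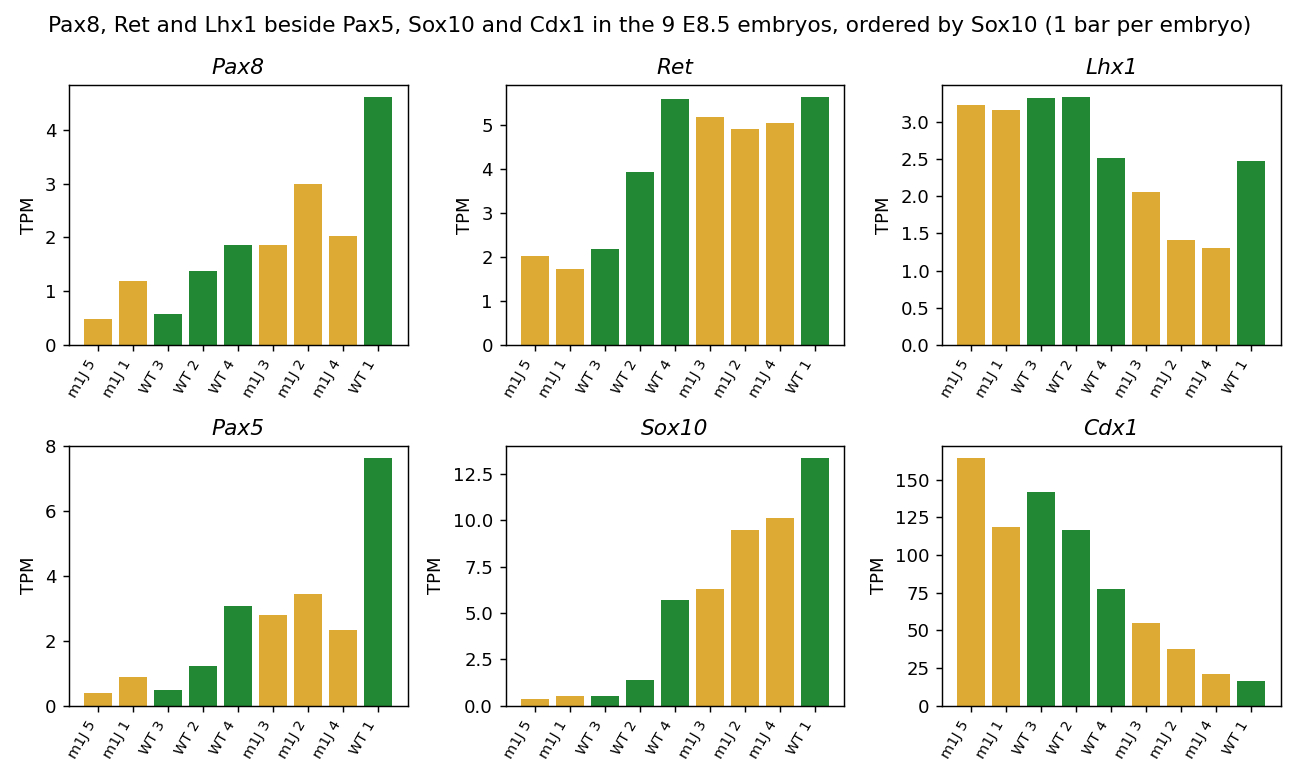
TPM (vertical axes, from 0) of Pax8, Ret and Lhx1 (upper row) and of Pax5, Sox10 and Cdx1 (lower row) in the 9 E8.5 embryos, 1 bar per embryo in order of rising Sox10, with Myo10_WT in green and Myo10_m1J in yellow. The 4 embryos at the left have the lowest Pax8, Ret and Pax5 and the highest Lhx1 and Cdx1, and they come from both genotypes.

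The spread among embryos of 1 genotype was wide for these genes at E8.5. The median coefficient of variation of the 8 tested genes was 36.8% in Myo10_WT and 38.7% in Myo10_m1J, against 14.9% and 14.3% over all genes, while at E9.5 that of the 10 was 9.28% and 12.3%, against 8.32% and 9.22%. All genes here are those with a mean TPM of at least 1 in the group, not matched for level. Apart from Osr1, the 8 genes had low means in Myo10_WT, at 1.77 to 4.98 TPM. The part of low level in the spread was not tested. At E8.5 the genes did not vary in 1 order. Pax8 was lowest in Myo10_m1J replicate 5, Myo10_WT replicate 3, Myo10_m1J replicate 1 and Myo10_WT replicate 2, at 0.491 to 1.38 TPM, and was 1.86 to 4.61 TPM in the other 5. The same 4 embryos had the lowest Ret, at 1.72 to 3.93 TPM against 4.90 to 5.63 TPM. They also had the highest Lhx1, at 3.15 to 3.33 TPM against 1.30 to 2.52 TPM. Pax5, a relative of Pax2 and Pax8 at the midbrain-hindbrain boundary, was lowest in these 4 as well, at 0.381 to 1.21 TPM against 2.33 to 7.63 TPM. So was Sox10, a marker of migrating neural crest, at 0.368 to 1.36 TPM against 5.70 to 13.4 TPM. Cdx1, a factor of the posterior axis that declines after these stages, was highest in the 4, at 117 to 164 TPM against 16.7 to 77.4 TPM. They are 2 wild-type and 2 mutant embryos, and Pax2, Gata3, Eya1, Six2 and Osr1 did not share this order. This description was made after the values were seen, and whether the embryos differed in stage was not tested.

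The wild types of the ages were compared to show how the genes differ between E8.5 and E9.5. On the deposited scale 7 of the 10 genes were called higher at E9.5 and 1 lower, against 69.4% and 10.2% of 13397 genes tested, so the counts are near the background. Of those called higher, Wt1 reached 1 TPM in 0 of 4 E8.5 embryos and entered the test through the E9.5 embryos alone, and Gdnf reached it in 1 of 4; a gene that enters in this way had to differ. After scaling, 4 were called higher (Six2, Wt1, Gdnf and Eya1) and 2 lower (Lhx1 and Osr1), against 36.4% and 36.2% of 13333 genes. The median over all genes was 0.62 as deposited and 0.0061 after scaling. Without overlap between the ages, 5 genes were higher and 1 was lower, against 66.1% and 7.96% of all genes. These values share their wild-type embryos with the mutant comparisons. Among them are Disp1_WT replicate 3, poor in tail bud RNA, and Myo10_WT replicate 1, which had the smallest tail bud sum of the E8.5 embryos.

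**Figure D4:**
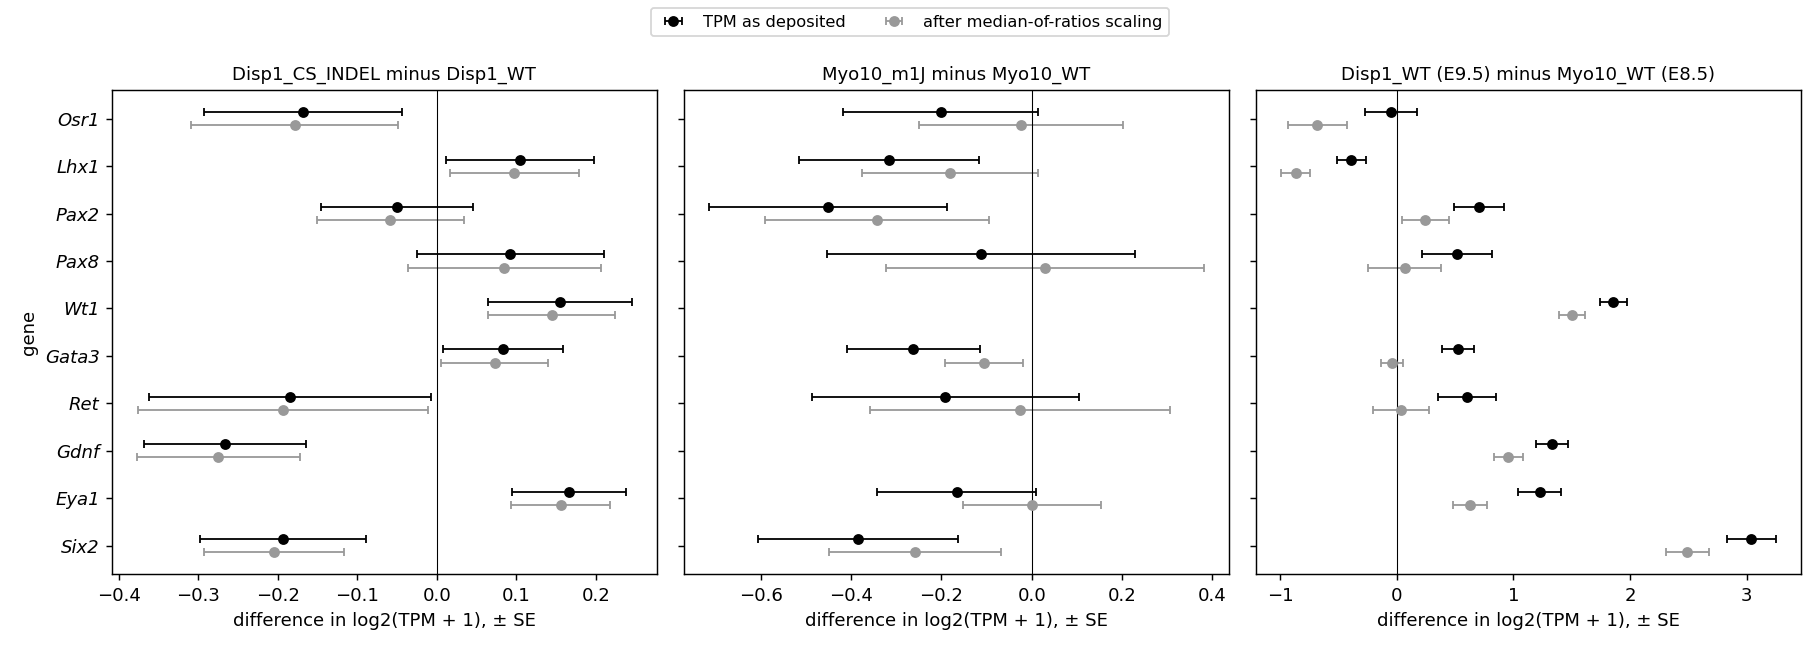
Difference in log2(TPM + 1) with its SE (horizontal axes) for the 10 genes (vertical axis) in the comparison of the Disp1 groups, of the Myo10 groups and of the wild types of both ages; black points are as deposited and grey points after median-of-ratios scaling, and Wt1 and Gdnf were not tested between the Myo10 groups. The mutant differences lie between -0.45 and 0.17 as deposited, while Six2 differs by 3.04 between the ages.

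Six2 had the largest difference in log2(TPM + 1) between the ages. It was 21.1 to 24.4 TPM in the wild type at E9.5 and 1.23 to 3.82 TPM at E8.5, a mean 11.1 times as high, and the log2 difference was 3.04 (SE 0.21, adjusted p = 2.25e-07, limma) as deposited and 2.49 (adjusted p = 2.62e-06) after scaling. Wt1 was 3.75 to 4.04 TPM at E9.5, against 0.157 to 0.638 TPM at E8.5. Its mean as deposited was 10.8 times as high, near the 11.1 times of Six2. The difference of Wt1 was 1.86 (SE 0.12) as deposited and 1.50 after scaling, called on both scales. The added 1 TPM shrinks the log2 difference of a gene so low at E8.5. Gdnf differed by 1.33 (SE 0.14) and by 0.96 after scaling, also called on both. Eya1 rose from 4.98 to 12.5 TPM on average, by 1.22 (SE 0.19, adjusted p = 9.64e-05, limma) and by 0.63 after scaling (adjusted p = 0.00382).

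Lhx1 was lower at the later age on both scales. All 4 E9.5 embryos, at 1.82 to 2.37 TPM, lay below all 4 E8.5 embryos, at 2.47 to 3.33 TPM. The difference was -0.39 (SE 0.12, adjusted p = 0.0130, limma) as deposited and -0.87 (adjusted p = 0.000188) after scaling. Osr1 depended on the scale, with -0.050 (SE 0.22, adjusted p = 0.842) as deposited and -0.68 (adjusted p = 0.0355) after scaling. For Pax2, Ret and Gata3 the reverse held: they were called higher as deposited, by 0.70, 0.60 and 0.53, and not after scaling, at 0.24, 0.038 and -0.041 (adjusted p = 0.288, 0.895 and 0.713, limma). The call of Ret as deposited (adjusted p = 0.0419, limma) was lost when any of several single embryos was left out, and its difference was 0.38 without Myo10_WT replicate 3. Pax8 was not called on either scale (0.51 and 0.066) and was 0.85 (adjusted p = 0.000765) as deposited without Myo10_WT replicate 1.

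Ratios of 2 genes within an embryo do not depend on the scaling of the library. The ratio of Six2 to Osr1 was 1.64 to 2.48 in Disp1_WT and 0.0749 to 0.502 in Myo10_WT, so these ranges are far apart. The ratio of Gdnf to Ret was 0.393 to 0.589 in Disp1_WT and 0.0738 to 0.185 in Myo10_WT, and that of Ret to its co-receptor partner Gfra1 was 0.761 to 1.47 and 2.26 to 3.90. Ligand and co-receptor were thus higher relative to the receptor in the older wild types. The ratio of Lhx1 to Pax2 was 0.521 to 0.681 in Disp1_WT and 0.738 to 2.91 in Myo10_WT. The ratio of Eya1 to Osr1 was 0.863 to 1.20 in Disp1_WT and 0.253 to 0.974 in Myo10_WT, and that of Pax2 to Pax8 was 1.01 to 1.17 and 0.528 to 2.00, so these ranges overlap. For Eya1 to Osr1 the overlap rests on Myo10_WT replicate 1, at 0.974, while the other Myo10_WT embryos were at 0.253 to 0.294. The same embryo gave the E8.5 values nearest to Disp1_WT for Six2 to Osr1 (0.502) and Lhx1 to Pax2 (0.738). The 6 ratios computed were chosen after the values were seen and carry no test.

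The wider kidney lists were also compared between the ages, where 69.4% of all genes were called higher and 10.2% lower as deposited, and 36.4% and 36.2% after scaling. Of 15 partners and readouts of RET signalling, 9 were called higher and 0 lower as deposited, and 6 and 6 after scaling, which is near that background. Sox8 and Sox9, factors of the ureteric tip, were higher by 2.61 and 1.91 (2.16 and 1.27 after scaling), Gdf11 by 1.80 (1.16) and Gfra1 by 1.47 (0.98), all called on both scales. Sox8 was 0.322 to 0.921 TPM in the E8.5 wild type and so entered the test through the E9.5 embryos alone. The receptor's transcriptional readouts Etv4 and Etv5, which FGF signalling also induces, were not called as deposited, at -0.40 and -0.16, and were called lower after scaling, at -1.05 and -0.83. Of 10 duct genes tested, 7 were called higher and 2 lower as deposited, and 5 and 2 of 9 after scaling. Emx2 was higher by 2.30 (1.81 after scaling) and Mecom by 1.70 (1.18), and Tfcp2l1, a factor also of early embryonic cells, was lower, at -2.29 (-2.73), called on both scales. Tfcp2l1 reached 1 TPM in only 1 of the 4 E9.5 embryos.

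Of 13 genes of the nephrogenic mesenchyme tested, 8 were called higher and 2 lower as deposited, and 6 and 5 after scaling. Wnt4, which drives the mesenchyme to form epithelium, was higher by 2.35 (1.80 after scaling), and the mesodermal factors Meox2 and Meox1 by 2.77 and 1.80 (2.31 and 1.13), where Meox2 reached 1 TPM in only 1 of the 4 E8.5 embryos. Cited1, of nephron progenitors and of other early tissues, was lower, at -1.06 (-1.73). Among 10 tested relatives of the 10 genes, 7 were called higher and 1 lower as deposited, and 6 and 1 after scaling. Eya2 was higher by 1.71 (1.09), Eya3 by 0.91 (0.24) and Nrtn, a ligand of the GDNF family, by 1.23 (0.66). Six4, a relative of Six2, was the one called lower, at 6.78 to 8.62 TPM in Disp1_WT and 10.5 to 13.2 TPM in Myo10_WT, a difference of -0.58 (-1.19). Of the genes of differentiated kidney, 7 of 12 genes of nephron segments and podocytes (among them Nphs1, Slc34a1, Umod and Aqp2) failed the filter, and of the 5 tested, 2 were called higher and 3 lower as deposited, and 1 and 3 after scaling. Synpo, of podocytes, was higher by 2.35 (1.90) and reached 1 TPM in only 1 of the 4 E8.5 embryos. Podxl, of podocytes and of other epithelia and vessels, was lower, at -0.81 (-1.49), with means of 144 TPM at E9.5 and 257 TPM at E8.5. Cubn and Lrp2, endocytic receptors of the proximal tubule that visceral endoderm also uses, were lower at E9.5, at -5.91 and -2.98 (-6.39 and -3.62). Cubn was 0.273 to 0.597 TPM in 3 of the E9.5 wild-type embryos and 9.72 TPM in Disp1_WT replicate 3, the embryo with RNA of decidua or trophoblast.

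The difference of the mutant effects, Disp1 minus Myo10, was tested in a fit of all 17 embryos and called 3 of 13910 genes (0.0216%), of which none was among the 10. None of the 10 had an unadjusted p under 0.05, against 4.95% of all genes. Their adjusted p-values were 0.586 to 0.994 (limma). The smallest unadjusted p was that of Gata3, whose effects differed by 0.35 (SE 0.17, unadjusted p = 0.0515, adjusted p = 0.586, limma), with 0.083 in the Disp1 and -0.26 in the Myo10 comparison. Age and mutated gene cannot be told apart in it.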

How the data were processed

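The authors deposited TPM values for 41709 gene symbols in 17 libraries, and each library sums to 1000000. Per the labels' protocols, RNA came from single whole embryos (RNeasy Micro Kit) and libraries from the TruSeq RNA v2 kit, which does not mark strand. The submitters' processing notes name the build GRCm39 (mm39); the aligner, the quantifier and the gene models were not given in the sources used here. Because TPM holds no depth, the precision that depth gives is unknown.

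Groups came from the sample titles. Values were taken as log2(TPM + 1), which understates folds of low genes, for genes that reached a TPM of 1 in 4 or more of the compared libraries, and tested with limma 3.58.1 in R 4.3.3 (mean-variance trend, Benjamini-Hochberg over all genes at 0.05); exact permutation tests were two-sided. Alternatives were median-of-ratios scaling, a pseudocount of 0.1, a minimum mean TPM of 5, no filter, no mean-variance trend, the replicate number as a block, 1 fit of all embryos, and leaving out each embryo; the fit without 2 embryos poor in tail bud RNA was added after seeing the data. The members and lists were chosen with earlier results of these data known. Named genes were all members, fixed partners and readouts, and of each other list up to 4 genes of smallest p between the ages; Etv4, Etv5, Pax5, Sox10, Cdx1, T, Msgn1, Hoxc10 and Prl8a2 and the genes that failed the filter were named after their values were seen. The test recovered large changes of known size that were planted in simulated data. Genes of low level, as many members are, were given no change there. It therefore does not tell whether their small mutant differences would be found. Overlapping transcripts of the GENCODE annotation for GRCm38 that share exons with Gata3 or Pax8 were listed at 0.153 TPM or less. Some genes of the lists count in the lists' totals but are not reported here singly.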

Additional observations from a re-analysis of the deposited data

Results flagged for a closer look

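Single embryos stood apart from the rest of their group by Dixon's 95% criterion in 4 of 64 gene and group combinations checked, where chance gives about 1 in 20. Lhx1 was 2.37 TPM in Disp1_WT replicate 2, above the other 3 wild-type embryos. Pax2 was 2.80 TPM in Disp1_WT replicate 3, below the other 3, in an embryo that was also low in tail bud RNA. Emx2 was 11.8 TPM in Disp1_CS_INDEL replicate 3, the lowest of the mutants and still above every wild-type embryo. The Hedgehog target Gli1 was 4.80 TPM in Myo10_m1J replicate 4, the lowest of its 5, an embryo that was the lowest of its group for 76.5% of all genes.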

How the results depend on the processing

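No member was called in the Disp1 or Myo10 comparison or in the difference of the effects under any alternative run; calls over all genes in these were few and moved by small counts. In the Disp1 comparison 1 gene was higher and 3 lower; lower became 1 with no filter, with the replicate block or in 1 fit of all libraries and 6 after scaling, and higher became 0 at a mean TPM of at least 5 or without both embryos poor in tail bud RNA and 2 after scaling; leaving out 1 embryo gave 0 to 1 higher and 1 to 2 lower. In the Myo10 comparison 0 were higher and 1 lower; lower became 2 with no filter, and leaving out 1 embryo gave 0 to 1 higher and 1 to 2 lower. The difference of the effects called 2 higher and 1 lower, and 6 and 2 with no filter, with 1 higher at a mean TPM of at least 5 or without both embryos; leaving out 1 embryo gave 1 to 3 higher. Replicate numbers do not pair the embryos (same-number correlations of deviations were -0.29 to 0.46 over the Disp1 and Myo10 comparisons); with the replicate block, 1 gene was higher and 45 lower in the Myo10 comparison and 12 were higher in the difference of the effects. In the Myo10 comparison Pax8 turned to 0.029 after scaling and 0.085 with the replicate block, and Eya1 to 0.00072 after scaling; leaving out 1 embryo gave -0.39 to 0.22 for Pax8 and -0.33 to 0.014 for Eya1, with the sign turned without Myo10_WT replicate 1 (both) and Myo10_m1J replicate 5 (Pax8). Between the ages, 9304 genes were higher and 1364 lower, 2139 lower with no filter, and 4858 higher and 4821 lower after scaling. Members called were 7 higher and 1 lower, 4 and 0 at a mean TPM of at least 5, where fewer were tested, and 4 and 2 after scaling; leaving out 1 embryo gave 5 to 8 higher and 1 lower. Gata3 turned to -0.041 after scaling, and Osr1 ranged from -0.28 to 0.10 with 1 embryo left out, positive without Disp1_WT replicate 3 or Myo10_WT replicate 2 or 4. Ret lost its call with a pseudocount of 0.1, with no filter, after scaling, in 1 fit of all libraries and when any of 5 single embryos was left out, and Pax2 lost its call after scaling. The causes were not tested beyond what each alternative changes. TPM gives no depth, so how depth limits the values near 0, as for Wt1 and Gdnf at E8.5, is unknown.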

Other observations

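Transcripts that lie beside the kidney genes were measured as well. Of 7 transcripts listed as antisense or divergent partners, 5 were in the table and 3 were tested between the Disp1 groups, all negative and none called. One of the 3 was Six3os1, which is named for Six3, a gene not among the members. Lhx1os, the transcript divergent from Lhx1, was called lower in the E9.5 than in the E8.5 wild type, at -0.60 as deposited (adjusted p = 0.0115, limma) and -1.06 after scaling (adjusted p = 0.00146), the direction of Lhx1 itself. Because the library kit does not mark strand, reads of overlapping partners cannot be told apart. No overlapping transcript was listed for Lhx1 in the GENCODE annotation for GRCm38.

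The relatives of the 10 genes were uneven in level. At E9.5 Osr2, the relative of Osr1, was 0.715 TPM ± 0.231 (SD, n = 4) in the wild type, and Pspn, a ligand of the GDNF family, was 0.0777 ± 0.0903. Eya3 had the highest wild-type level of the relatives and members listed, at 54.7 TPM ± 3.65 (SD, n = 4). Gata2, the relative of Gata3, was 5.05 ± 0.274 at E9.5 and 3.04 ± 0.585 at E8.5 in the wild types. Etv5, a readout of RET and FGF signalling, was at 55.4 TPM ± 6.60 at E9.5, above Ret itself at 6.94.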
